A study of Mus musculus with 6 samples.

Results

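The expression of 55 genes of mitosis was compared in regulatory T cells (Tregs) with and without Zfp335, a zinc finger transcription factor. The genes were taken by symbol from a count table of 13709 gene rows and all 55 were found there. They comprise 11 regulators of the passage from G2 phase into mitosis (G2/M), 5 spindle checkpoint genes, 6 outer kinetochore genes, 10 centromere protein genes, 4 chromosomal passenger genes, 4 anaphase genes, 8 genes of the spindle and cytokinesis, and 7 genes of condensin I and mitotic chromosomes. They were listed by function, with earlier results of these data known, and no member was lost to the filter on low counts.

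Bulk RNA-Seq libraries had been made from CD4+YFP+CD25+ cells of C57BL/6 mice, 3 from WT mice and 3 from KO mice. KO mice carried Foxp3Cre and Zfp335fl/fl, so that cells expressing Foxp3 also express Cre recombinase and lose Zfp335. WT mice were Foxp3Cre controls. Mice of both genotypes were 2 weeks old. YFP from the same locus marked the sorted cells, so the libraries describe cells with an active Foxp3 locus. The labels name lymph nodes and spleen for the same samples, and they do not say whether a library came from 1 mouse or several, so p-values measure the spread between these libraries, which may be technical.

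Dividing cells copy their DNA in S phase and then switch on a late set of genes for mitosis. Cdk1 with cyclin A or B drives entry into mitosis, condensin compacts the chromosomes, the kinetochore built on each centromere binds spindle microtubules, and the spindle checkpoint holds back the anaphase-promoting complex (APC/C) until every chromosome is attached. In many animal cells the late genes share promoter letters called the CCAAT box, bound by NF-Y, and the cell cycle genes homology region (CHR), bound by MuvB complexes, whereas genes of S phase more often carry E2F sites. Tregs divide at a high rate in young animals, and Mki67 is the usual marker of dividing cells among them.

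Promoter letters are shown first, because the members were listed by function and the letters are a feature of many of them that the list did not use. RefSeq promoter windows of GRCm38.p6 (250 bases before to 50 after a start) were matched to 46 of the 55 genes, which gave 51 windows. The CCAAT box (CCAAT) was in 76.5% of these windows on either strand, beside 37.9% of 13477 windows of all genes tested and 37.4% of 32851 windows in the whole table. The CHR (TTTGAA or TTCGAA) was in 66.7%, beside 14.8% of the genes tested and 19.2% of the whole table. Both were in 60.8% of the members' windows, beside 6.18% and 7.52%. An E2F site (TTTGGCGC, TTTCCCGC, TTCCCGCC, TTGGCGCC or TTTGGCGG, of which some can overlap each other) was in 13.7%, beside 7.14% and 4.24%. For 33 genes of DNA replication listed for comparison, 30 windows of 25 genes were found, of which 53.3% held the CCAAT box, 20% the CHR, 16.7% both and 56.7% an E2F site.

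**Figure D1:**
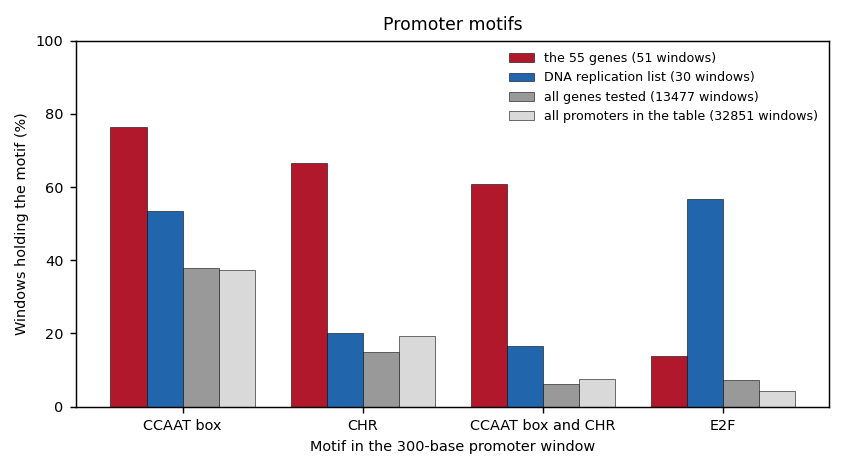
Share of promoter windows (%, vertical axis) that hold each motif on either strand (horizontal axis), in the 55 genes (red, 51 windows), the DNA replication list (blue, 30 windows), all genes tested (dark gray) and all windows in the table (light gray). The CHR stands at 66.7% of the members' windows and 20% of the replication windows, and the E2F bars stand the other way round, at 13.7% and 56.7%.

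The sequences printed here are the 200 bases before the start for the members with the largest fold change of their role, plus Pttg1, a member whose level differed little. Each is written 5′ to 3′ on the gene's strand, and capitals mark the CCAAT box or CHR letters or their reverse complements. Ckap2l stands for the spindle genes, since Tpx2 had no matched window. Mki67 carries 3 CCAAT boxes and 2 CHRs, Ckap2l 3 and 1, and Espl1 1 of each. Bub1 carries 2 CCAAT boxes, Nek2 and Cenpe 1 each, and Birc5 and Pttg1 neither motif in these bases. The windows used for the shares above are longer than the printed stretch. In its whole window Bub1 also holds 1 CHR, Nek2 holds 2 CCAAT boxes and Ckap2l holds 2 CHRs.
Mki67, chr7:135716380-135716579, minus strand: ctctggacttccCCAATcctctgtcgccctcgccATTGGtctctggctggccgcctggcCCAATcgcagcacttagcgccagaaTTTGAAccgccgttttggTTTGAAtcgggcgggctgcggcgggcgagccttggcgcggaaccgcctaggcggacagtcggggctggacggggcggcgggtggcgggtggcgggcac
Ckap2l, chr2:129297213-129297412, minus strand: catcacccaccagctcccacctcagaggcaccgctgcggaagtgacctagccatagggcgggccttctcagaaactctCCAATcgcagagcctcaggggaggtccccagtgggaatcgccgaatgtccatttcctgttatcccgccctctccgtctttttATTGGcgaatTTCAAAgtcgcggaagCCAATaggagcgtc
Espl1, chr15:102296093-102296292, plus strand: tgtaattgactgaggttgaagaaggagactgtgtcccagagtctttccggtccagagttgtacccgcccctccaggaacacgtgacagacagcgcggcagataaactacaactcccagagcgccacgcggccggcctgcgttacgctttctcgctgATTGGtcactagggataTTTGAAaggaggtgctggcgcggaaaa
Bub1, chr2:127831860-127832059, minus strand: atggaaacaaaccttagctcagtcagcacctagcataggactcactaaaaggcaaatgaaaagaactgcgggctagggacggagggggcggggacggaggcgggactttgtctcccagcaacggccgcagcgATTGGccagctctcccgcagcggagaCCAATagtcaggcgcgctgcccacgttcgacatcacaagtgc
Nek2, chr1:191821273-191821472, plus strand: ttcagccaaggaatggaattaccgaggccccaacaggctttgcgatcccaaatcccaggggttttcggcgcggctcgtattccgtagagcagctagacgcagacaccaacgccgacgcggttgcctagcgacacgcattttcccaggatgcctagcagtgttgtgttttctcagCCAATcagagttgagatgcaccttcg
Cenpe, chr3:135212363-135212562, plus strand: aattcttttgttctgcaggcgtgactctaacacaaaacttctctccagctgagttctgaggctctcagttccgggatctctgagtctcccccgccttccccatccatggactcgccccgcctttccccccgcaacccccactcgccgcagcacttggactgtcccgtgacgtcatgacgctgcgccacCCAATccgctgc
Birc5, chr11:117849037-117849236, plus strand: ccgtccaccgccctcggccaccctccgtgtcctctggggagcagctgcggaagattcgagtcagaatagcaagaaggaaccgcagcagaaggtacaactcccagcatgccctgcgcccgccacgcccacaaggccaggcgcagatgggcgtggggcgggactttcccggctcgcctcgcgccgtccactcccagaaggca
Pttg1, chr11:43425982-43426181, minus strand: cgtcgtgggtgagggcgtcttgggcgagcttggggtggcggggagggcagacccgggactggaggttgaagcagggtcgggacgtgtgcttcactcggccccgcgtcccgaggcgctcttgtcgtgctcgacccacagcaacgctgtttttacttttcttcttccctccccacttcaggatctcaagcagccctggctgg
The starts are those of RefSeq, and for Pttg1 the printed bases lie inside the span that GENCODE M21 gives the gene. The sequences of Ska3, the outer kinetochore gene with the largest fold change, and of Cenpt overlap exons of coding transcripts by more bases than those shown and are not printed. A match is a run of letters and not a tested binding site.

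The 6 libraries had 32032631 to 40728419 counts, at which 3 counts amount to 0.0747 to 0.0913 CPM (counts scaled to the TMM-adjusted total of the library), and the lowest value of any member was 1.53 CPM. Zfp335, the targeted gene, was at 101.3, 94.3 and 102.6 CPM in WT and 37.0, 37.9 and 40.2 CPM in KO. Foxp3 was at 738, 642 and 1190 CPM in WT and 460 to 472 CPM in KO and was called lower (log2 fold change -0.88, edgeR adjusted p 0.012), a call that rested on WT replicate 3: without it the log2 fold change was -0.57, under the fold cutoff. Cd4, Cd3e and Il2ra were present in every library, at means of 659, 463 and 1038 CPM in WT and 788, 338 and 958 CPM in KO. Every KO library was above every WT library for Cd4, as in 26.2% of all genes tested, and below for Cd3e, as in 27.6%. Their log2 fold changes of 0.26 and -0.45 were under the fold cutoff, and Il2ra overlapped between genotypes. WT replicate 3 stood apart from the other WT libraries on the second principal component (18.4% of the variance, -58.9 against 22.1 and 34.4). The summed level of 7 myeloid markers was 22.1 to 28.4 CPM in WT and 54.8 to 63.4 CPM in KO. Beside 11.9% of all genes tested, 5 of the 7 (71.4%) were called higher (4 to 5 with a library left out). Of these, S100a8 and S100a9 were at 0 in every WT library and at means of 2.10 and 2.18 CPM in KO. In single-cell data of younger mice, the paper reported both genes as high in a Treg cluster that it named dysfunctional. That cluster expressed Top2a and Mki67. The paper also reported Top2a and Mki67 as more enriched in central than in effector Tregs, and central Tregs as a cluster present in both genotypes. Of 3 NK cell markers, 2 (66.7%) were called higher (1 to 2 with a library left out), beside 11.9% of all genes tested. The summed level of the 3 markers was 3.59 to 5.83 CPM in WT and 14.9 to 16.2 CPM in KO. Most of this sum in KO was Eomes, at a mean of 2.31 CPM in WT and 11.3 in KO. Klrb1c was at 1.65 and 3.48 CPM, and Ncr1, which was not called, at 0.384 and 0.940 CPM. B cell markers summed to 18.7 to 20.7 CPM in WT and 12.8 to 13.7 CPM in KO, and CD8 T cell markers to 9.32 to 13.2 CPM and 12.02 to 12.7 CPM. These cell types' part in the results was not tested, and in bulk libraries more dividing cells cannot be told apart from more mitotic RNA per cell.

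Mitotic transcripts were higher in Zfp335-deficient Tregs. Of the 55 genes, 51 (92.7%) were called higher in KO, which means a fold change above 1.5, p under 0.05 and Benjamini-Hochberg adjusted p under 0.1 in edgeR's quasi-likelihood test over all 13594 genes tested. Of all genes tested, 24.4% were called, 11.9% higher and 12.5% lower. By edgeR none of the 55 genes was called lower, 0 were lower at an unadjusted p under 0.05, and DESeq2 called 0 lower. Those not called were the checkpoint gene Bub3, the centromere gene Cenpt, the securin gene Pttg1 and the condensin gene Smc4.

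The median log2 fold change of the 55 genes was 1.67 (3.19-fold), beside -0.04 for all genes tested. Their quartiles were 1.42 and 1.87, and 49 genes rose more than 2-fold, 36 more than 3-fold and 6 more than 4-fold. A fold change above 3 was found in 65.5% of the 55 genes and in 4.79% of all genes tested. Bub1, the member with the largest fold change, held rank 364 among the rises of all genes. Adjusted p-values of the 51 genes ran from 9.15e-05 to 0.0453, with 44 under 0.01, and their SEs from 0.07 to 0.46.

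In 52 of the 55 genes every KO library was above every WT library, a separation that 26.2% of all genes tested had. In Smc4 every KO library was below every WT library, as in 27.6% of all genes, and in Cenpt and Pttg1 the genotypes overlapped. Among the 51 called genes the lowest KO value exceeded the highest WT value by 1.46-fold (Cenpp) to 3.55-fold (Nek2), with a median of 2.49-fold. Added together, the 55 genes held 3121, 3254 and 2043 CPM in WT and 7329, 7270 and 7197 CPM in KO, which is 2806 ± 664 against 7265 ± 66.4 (SD, n = 3). The fold of these sums was 2.59, and 3.17 without Smc4, which alone made up 25.7% of the WT sum and 8.89% of the KO sum.

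**Figure D2:**
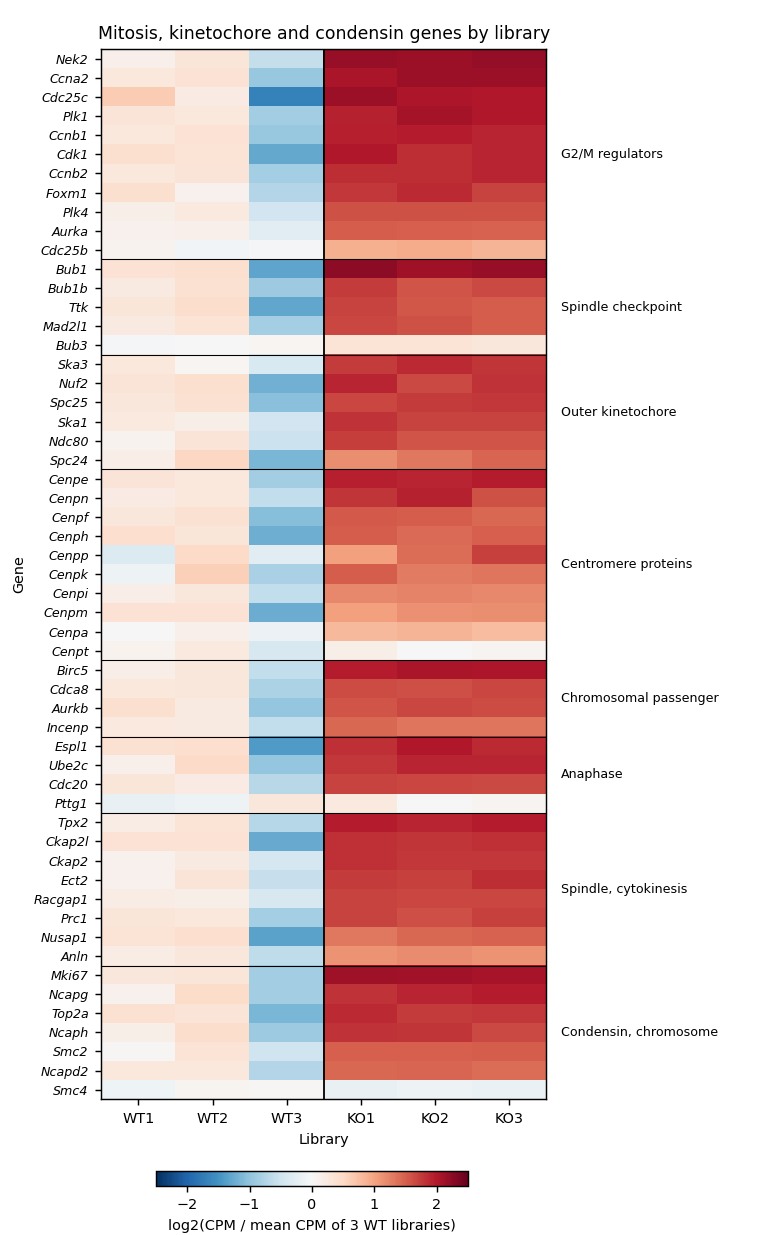
Level of each gene (rows, by role) in each library (columns) as log2 of its CPM over the mean CPM of the 3 WT libraries (color scale, blue below and red above the WT mean). The KO columns are red and alike in nearly every row, the WT replicate 3 column is blue in most rows, and Bub3, Cenpt, Pttg1 and Smc4 stay pale in KO.

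The size of the rise rested in part on WT replicate 3. This library had the lowest WT value in 50 of the 55 genes, at a median of 47.3% of the mean of WT replicates 1 and 2, while over all genes the median was 99.6%. It was below 60% of that mean in 41 genes, and only Bub3, Pttg1 and Smc4 were higher in it than the mean of the other WT libraries. The summed level of 5 erythroid markers was also lowest in it, at 23.3 CPM beside 84.6 and 101.02 CPM in the other WT libraries and 43.2 to 49.8 CPM in KO. The 4 Treg and T cell markers did not move together in it. Foxp3 was highest in it, at 1190 CPM beside 738 and 642, as was Il2ra, at 1302 CPM beside 903 and 909 in the other WT libraries. Cd3e was the lowest WT value in it, at 397 CPM beside 529 and 463, and Cd4 was at 648 CPM beside 682 and 646. The part of such differences in the result was not tested. Without this library, 51 genes were still called higher and the median log2 fold change was 1.41. The spread among the KO libraries was small: the median coefficient of variation (CV) of the 55 genes was 38.3% in WT and 3.67% in KO, beside 13.8% and 6.57% over all genes.

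**Figure D3:**
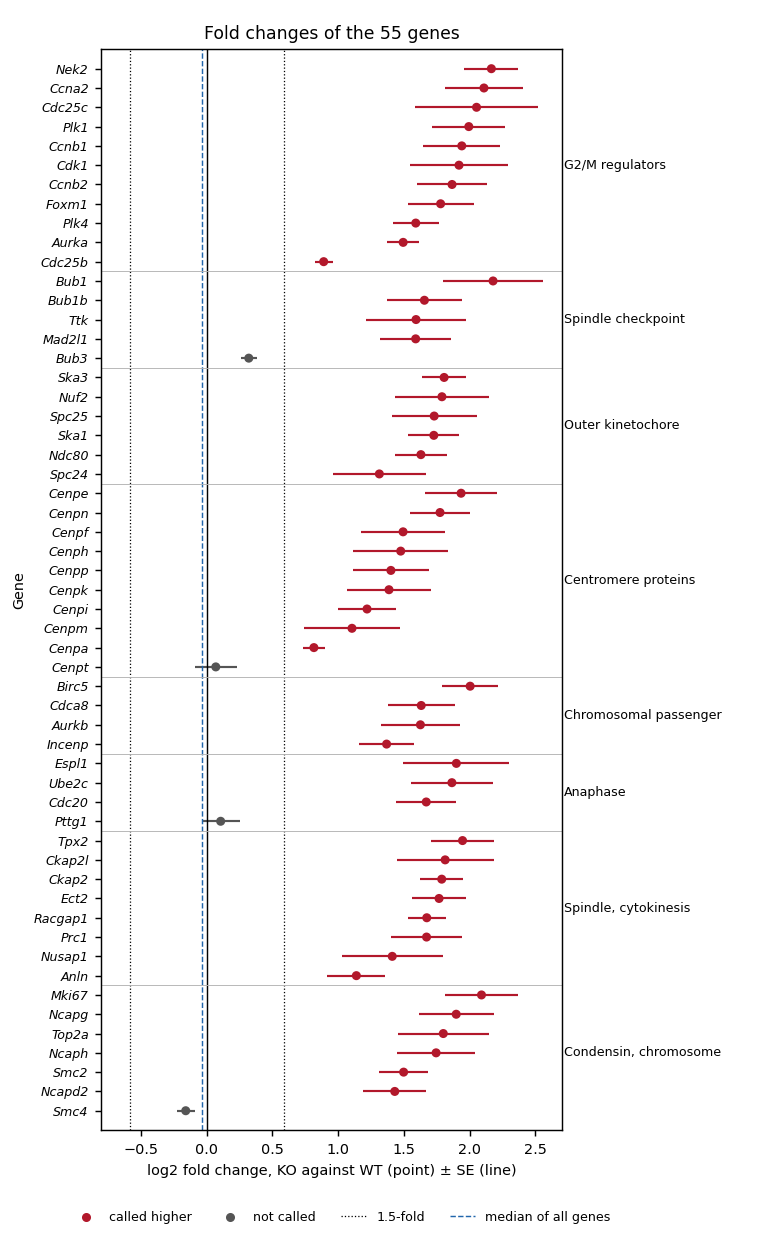
Log2 fold change of KO against WT (points) with its SE (lines) for each of the 55 genes, ordered by role. Dotted lines mark 1.5-fold and the dashed line the median of all genes (-0.04). The 51 called genes (red) lie between 0.82 and 2.18, and the 4 others (gray) between -0.16 and 0.32.

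All 11 G2/M regulators were called higher, with a median log2 fold change of 1.92. Nek2, a kinase that helps separate the centrosomes, changed most of them and lies at chr1:191821444-191833050 (GRCm38). It was at 19.1, 21.5 and 11.6 CPM in the WT libraries and 78.6, 76.4 and 79.4 CPM in the KO libraries. All KO libraries were above 75 CPM and no WT library above 22 (log2 fold change 2.17, SE 0.21, edgeR adjusted p 0.000246). Cdk1, the kinase that drives entry into mitosis, was at 26.6, 25.5 and 8.35 CPM in the WT libraries and 81.2, 72.3 and 75.6 CPM in the KO libraries (log2 fold change 1.92, SE 0.37, edgeR adjusted p 0.00518). Its cyclin partners Ccna2, Ccnb1 and Ccnb2 rose by log2 fold changes of 2.11, 1.94 and 1.87, and the polo-like kinase Plk1 by 1.99. Foxm1, a transcription factor that activates late cell cycle genes, rose by 1.78, and the kinases Plk4, which acts in centriole copying, and Aurka, which acts at spindle poles, by 1.59 and 1.49.

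The phosphatases that activate Cdk1 differed in size of change. Cdc25c was the scarcest regulator per length, at 1.01 CPM per kb of exon in WT, and it was at 7.69, 5.69 and 1.53 CPM in the WT libraries and 22.03, 20.1 and 19.9 CPM in the KO libraries (log2 fold change 2.05, SE 0.46, edgeR adjusted p 0.0104). WT replicate 3 was far below the other WT libraries there, at 22.9% of their mean, the lowest such share among the 55 genes. Cdc25b had the smallest change of the regulators, and it was at 113, 102 and 104 CPM in the WT libraries and 197, 202 and 193 CPM in the KO libraries (log2 fold change 0.89, SE 0.07, edgeR adjusted p 9.15e-05). It is among the 4 genes whose level in WT replicate 3 was within 20% of the mean of the other WT libraries, and its adjusted p was the smallest of the 55 genes.

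Of 5 spindle checkpoint genes, 4 were called higher and Bub3 was not, with a median log2 fold change of 1.59. Bub1 (chr2:127801122-127831865) encodes a kinase that recruits checkpoint proteins to kinetochores. It was at 16.9, 17.5 and 5.35 CPM in the WT libraries and 62.02, 57.9 and 60.2 CPM in the KO libraries, and the lowest KO library exceeded the highest WT library by 3.31-fold (log2 fold change 2.18, SE 0.38, edgeR adjusted p 0.00318). Its log2 fold change without WT replicate 3 was the smallest of those with single libraries left out, at 1.80. Bub1b, Mad2l1 and the kinase gene Ttk rose by 1.66, 1.59 and 1.59. Bub3 (chr7:131560222-131571895), the adaptor that binds Bub1 and Bub1b, was at 88.7, 90.7 and 93.6 CPM in the WT libraries and 115, 115 and 110.5 CPM in the KO libraries. The genotypes did not overlap and the adjusted p was 0.00475 in edgeR's test, but the log2 fold change of 0.32 (SE 0.06) was under the fold cutoff. Bub3 was the most abundant of these genes per length in WT, at 12.99 CPM per kb, and in KO stood at 16.2 beside 30.8 for Bub1b and 13.8 for Bub1.

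The outer kinetochore genes encode the Ndc80 complex (Ndc80, Nuf2, Spc24, Spc25), which grips microtubules, and the Ska proteins that join it there. All 6 were called higher, with log2 fold changes from 1.31 to 1.81. Ska3 was at 8.83, 7.61 and 5.65 CPM in the WT libraries and 24.8, 26.96 and 25.6 CPM in the KO libraries (log2 fold change 1.81, SE 0.17, edgeR adjusted p 0.000219), and Ska1 rose by 1.73. Spc24 was at 16.2, 20.6 and 6.52 CPM in the WT libraries and 32.4, 35.9 and 39.4 CPM in the KO libraries (log2 fold change 1.31, SE 0.35, edgeR adjusted p 0.0207). Spc24 had the narrowest gap of this group, 1.57-fold between its lowest KO and highest WT library, and its call was lost when the fold was tested against 1.5 (glmTreat). Ndc80, Nuf2 and Spc25 rose by 1.63, 1.79 and 1.73. Per kb of exon the 4 subunits of the Ndc80 complex stood at 3.28, 2.17, 5.61 and 2.25 CPM in WT and 10.1, 7.51, 13.9 and 7.48 CPM in KO, with Spc24 the highest in both.

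Centromere proteins had the smallest median change of the roles (log2 fold change 1.39), and 9 of 10 were called higher. Cenpe, a motor protein that moves chromosomes to the spindle equator, changed most. It was at 49.3, 47.2 and 21.7 CPM in the WT libraries and 152, 146 and 153 CPM in the KO libraries (log2 fold change 1.94, SE 0.27, edgeR adjusted p 0.00129), and WT replicate 3 was the lowest. Cenpf rose by 1.49. Of the inner kinetochore network, which stays on centromeres through the cell cycle, Cenpn, Cenph, Cenpp, Cenpk, Cenpi and Cenpm rose by 1.78, 1.48, 1.40, 1.39, 1.22 and 1.11. Cenpm was the weakest call of the 51. It was at 9.24, 9.29 and 3.06 CPM in the WT libraries and 14.7, 15.8 and 16.03 CPM in the KO libraries (edgeR adjusted p 0.0453), and it was no longer called without any 1 of the KO libraries, at adjusted p-values of 0.106 to 0.116. Cenpa, the histone H3 variant that marks centromeres, was at 70.2, 76.3 and 62.9 CPM in the WT libraries and 123, 126 and 119 CPM in the KO libraries (log2 fold change 0.82, SE 0.08, edgeR adjusted p 0.00034), the smallest change among called members.

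Cenpt (chr8:105844673-105853278), which links centromeric DNA to the Ndc80 complex, belonged to the network too but did not pass the test. It was at 29.6, 32.9 and 21.1 CPM in the WT libraries and 30.7, 27.8 and 29.2 CPM in the KO libraries. WT replicate 3 was the lowest library, WT replicate 2 the highest and the KO libraries lay between them (log2 fold change 0.07, SE 0.16, edgeR adjusted p 0.761). Without WT replicate 3 the log2 fold change turned to -0.10.

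All 4 genes of the chromosomal passenger complex, which corrects wrong attachments of microtubules and later acts in cytokinesis, were called higher (median log2 fold change 1.63). Birc5 (chr11:117849251-117855743), also known as survivin, was at 28.5, 30.9 and 16.4 CPM in the WT libraries and 97.9, 104 and 102 CPM in the KO libraries (log2 fold change 2.0, SE 0.21, edgeR adjusted p 0.000392). Aurkb, the kinase of the complex, and Cdca8, also known as borealin, rose by 1.63 and 1.63. Incenp, the scaffold, was at 95.2, 94.2 and 52.5 CPM in the WT libraries and 218, 205 and 203 CPM in the KO libraries (log2 fold change 1.37, SE 0.21, edgeR adjusted p 0.00178), the smallest change of the complex and its highest level per length, at 18.6 CPM per kb in WT and 48.1 in KO.

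Of the anaphase genes, 3 of 4 were called higher. Espl1, the protease separase that cuts cohesin, was at 33.6, 34.5 and 9.73 CPM in the WT libraries and 91.9, 103 and 94.9 CPM in the KO libraries (log2 fold change 1.90, SE 0.40, edgeR adjusted p 0.00786), and WT replicate 3 was at 28.6% of the mean of the other WT libraries. Cdc20, which activates the APC/C, and Ube2c, the ubiquitin-conjugating enzyme that works with it, rose by 1.67 and 1.87. Pttg1 (chr11:43420250-43426251), the securin that holds separase inactive, was at 18.3, 18.8 and 25.1 CPM in the WT libraries and 24.4, 20.9 and 21.6 CPM in the KO libraries. The highest of the 6 values was in WT replicate 3, and the genotypes overlapped (log2 fold change 0.11, SE 0.14, edgeR adjusted p 0.596).

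All 8 genes of the spindle and cytokinesis were called higher (median log2 fold change 1.72). Tpx2, which starts microtubules near chromosomes and activates Aurora A, was at 40.9, 45.5 and 21.9 CPM in the WT libraries and 140.3, 136 and 141 CPM in the KO libraries (log2 fold change 1.95, SE 0.24, edgeR adjusted p 0.000712). Ckap2l, Ckap2, Ect2, Racgap1 and Prc1 rose by 1.81, 1.79, 1.77, 1.67 and 1.67, and Nusap1 by 1.41. Ect2 and Racgap1 place and activate the contractile ring, and Prc1 bundles the microtubules of the midzone. Anln, the scaffold of the ring, had the smallest change and was at 15.7, 16.96 and 8.86 CPM in the WT libraries and 29.97, 31.6 and 29.98 CPM in the KO libraries (log2 fold change 1.14, SE 0.22, edgeR adjusted p 0.0052).

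In the group of condensin I and chromosome genes, 6 of 7 were called higher. Mki67 (chr7:135689784-135716361), the coat protein of mitotic chromosomes, was at 441, 445 and 199 CPM in the WT libraries and 1568, 1549 and 1507 CPM in the KO libraries (log2 fold change 2.09, SE 0.28, edgeR adjusted p 0.00101). It was the most abundant of the 55 genes per length in KO, at 153 CPM per kb, and made up 12.9% of the summed CPM in WT and 21.2% in KO. Top2a, which untangles sister DNAs, was at 233, 222 and 80.8 CPM in the WT libraries and 652, 601 and 610.2 CPM in the KO libraries (log2 fold change 1.80, SE 0.35, edgeR adjusted p 0.00517). The condensin I subunits Ncapg, Ncaph, Smc2 and Ncapd2 rose by 1.90, 1.75, 1.5 and 1.43.

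Smc4 (chr3:69004738-69034623), the ATPase that pairs with Smc2 in both condensins, did not rise. It was at 672, 753 and 738 CPM in the WT libraries and 633, 658 and 647 CPM in the KO libraries. The KO libraries were all slightly below the WT libraries, and the difference did not pass the test (log2 fold change -0.16, SE 0.07, edgeR adjusted p 0.107). The log2 fold change lay between -0.21 and -0.13 with any single library left out. In WT it was the most abundant of the 55 genes per length, at 138 CPM per kb beside 10.5 for Smc2, and in KO it was at 124 beside 29.5.

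**Figure D4:**
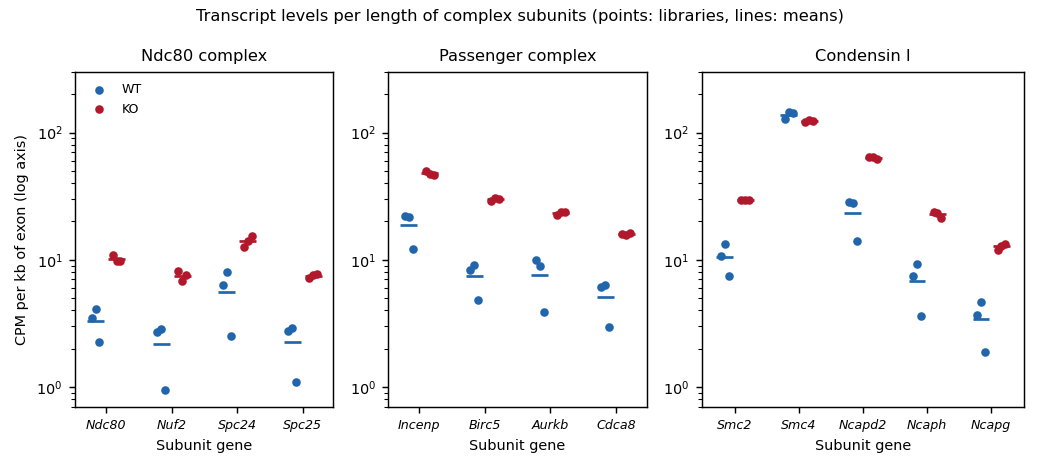
CPM per kb of exon (log axis) of the subunits of the Ndc80 complex, the chromosomal passenger complex and condensin I in each WT library (blue points) and KO library (red points), with group means as lines. The red points lie above the blue in every subunit but Smc4, which is at 138 in WT and 124 in KO.

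Partners within a complex or step were then set against each other as ratios of CPM per kb within each library. The pairs were chosen after the values were seen, so the ratios are descriptions with no test. The difference of each ratio between genotypes follows from the fold changes already given for its 2 genes and is no separate result. The ratio of Smc4 to Smc2 was 12.1, 10.8 and 19.1 in WT and 4.11, 4.30 and 4.19 in KO. That of Bub3 to Bub1 was 3.26, 3.23 and 10.9 in WT and 1.16, 1.24 and 1.14 in KO, and that of Pttg1 to Espl1 was 2.38, 2.39 and 11.3 in WT and 1.16, 0.885 and 0.995 in KO. Each of these ratios was highest in WT replicate 3. For pairs in which both genes were called, Ccnb2 to Ccnb1 was 4.39 ± 0.22 in WT and 4.11 ± 0.18 in KO (SD, n = 3), and Ska3 to Ska1 was 1.39 ± 0.09 and 1.46 ± 0.13. Birc5 to Aurkb was 1.04 ± 0.20 in WT and 1.28 ± 0.003 in KO, and Spc24 to Spc25 was 2.46 ± 0.26 and 1.86 ± 0.12.

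The promoter letters were counted by gene as well. Of the 43 called genes with a window, 33 held a CCAAT box, 30 a CHR and 27 both, and 7 an E2F site. Of the 3 genes not called that had a window, Bub3 held both motifs and Cenpt and Pttg1 neither, while Smc4 had no matched window. With 3 such genes no comparison between them and the called genes was made.

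Other genes of the cell cycle, listed by function, were read with the same fit. Of 50 further mitosis genes, 44 were called higher by edgeR and none lower (0 at an unadjusted p under 0.05), with a median log2 fold change of 1.68. Iqgap3, of the IQGAP family of scaffolds, changed most and was at 5.92, 6.30 and 3.12 CPM in the WT libraries and 27.9, 27.6 and 24.7 CPM in the KO libraries (log2 fold change 2.38, SE 0.25, edgeR adjusted p 0.000349). Knl1, the kinetochore scaffold that recruits Bub1 and Bub3, rose by 1.93. The others were Cenpo, Cenpq, Hjurp, Mis12, Zwint and Zw10, all with log2 fold changes from 0.13 to 0.54, and Cenpo changed least, at 19.1, 18.8 and 16.6 CPM in the WT libraries and 20.4, 19.1 and 20.4 CPM in the KO libraries (log2 fold change 0.13, SE 0.10, edgeR adjusted p 0.336). Hjurp, the chaperone that loads Cenpa, was at 227, 216 and 181 CPM in the WT libraries and 309, 296 and 301 CPM in the KO libraries and fell short of the fold cutoff at 0.54, but was called without WT replicate 1, at 0.60.

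Of the 3 subunits found in condensin II alone, 2 were called higher, Ncapg2 (1.96) and Ncapd3 (0.70), and Ncaph2 was not (0.53). Of 33 DNA replication genes, 30 were called higher by edgeR and none lower (0 at an unadjusted p under 0.05), with a median log2 fold change of 1.13. Rrm2, the subunit of ribonucleotide reductase that limits the supply of DNA building blocks, changed most and was at 94.1, 93.8 and 35.7 CPM in the WT libraries and 421, 407 and 406 CPM in the KO libraries (log2 fold change 2.46, SE 0.33, edgeR adjusted p 0.00105). Rfc2 changed least, at 0.52, and was called only without WT replicate 2 (0.60) among the fits that left out a library. Beside the 11.9% of all genes tested that were called higher, 4 of 12 cohesin genes (33.3%) were, with a median of 0.30. Among 15 APC/C genes 1 (6.67%) was, with a median of 0.10. The difference between these medians and that of the 55 genes was not tested.

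**Figure D5:**
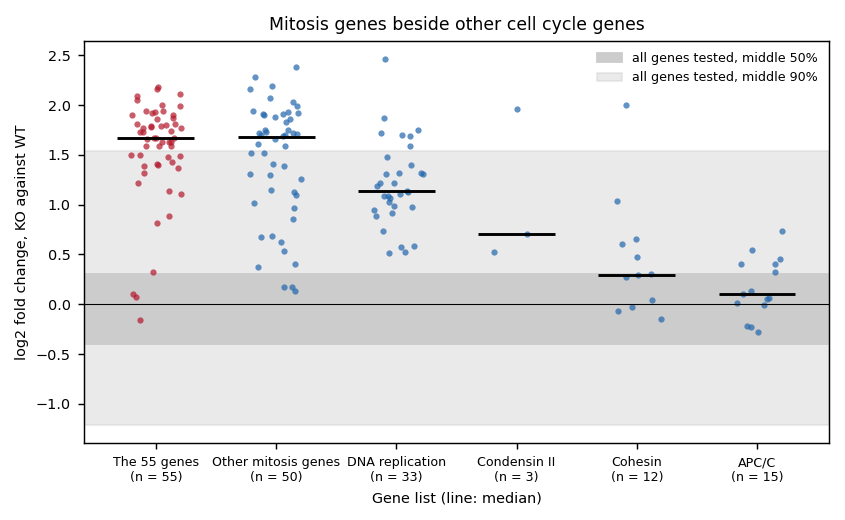
Log2 fold change of KO against WT for each gene (points) of 6 lists, with each list's median (black line), over the middle 50% and 90% of all genes tested (gray bands, -0.40 to 0.31 and -1.21 to 1.54). The medians stand at 1.67 for the 55 genes and 1.68 for other mitosis genes, at 1.13 for DNA replication and at 0.10 for the APC/C.

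Counting without strand would give reads of a neighbor to a member, and whether strand was used is not given in the sources used here. Exons of 19 of the 55 genes overlap those of another gene in GENCODE M21. The overlap with coding genes was largest for Ube2c (22.8% of its exon bases, with Tnnc2 on the other strand), Ncapg (13.4%, Lcorl), Cdc25c (12.7%, Gm3550), Cenpp (12.6%, Ippk and Aspn), Ccna2 (12.5%, Exosc9) and Prc1 (11.1%, Rccd1), so their levels are uncertain. Nek2, Plk1, Ckap2l, Ncapd2 and Top2a overlap noncoding genes over at most 7.53% of their exon bases, and Ccnb1 and Ccnb2 have annotated pseudogene copies.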

How the data were processed

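RNA-Seq of sorted Tregs was analysed from 3 WT and 3 KO libraries, grouped by the genotype in the labels. Per the study's methods, the authors filtered reads with SOAPnuke, used HISAT2 with the mm10 genome, allowing each read 1 alignment, and ran StringTie for gene levels. The authors deposited raw counts per gene, whole numbers without normalization. How whole counts were obtained and which annotation and strand setting were used are not given in the sources used here. Reads of near-identical copies can be placed on the wrong gene by such alignment.

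The counts were tested with R 4.3.3 and edgeR 4.0.16. Genes were filtered with filterByExpr (minimum count 10, 13594 of 13709 kept), libraries scaled by TMM, and KO compared with WT by the quasi-likelihood F-test without covariates. A gene was called at the study's cutoffs, a fold change above 1.5, p under 0.05 and Benjamini-Hochberg adjusted p under 0.1. The SE is the size of the log2 fold change divided by the square root of F. CPM values are relative to TMM-scaled library totals, and CPM per kb divides by the exon bases of GENCODE M21 (GRCm38). Promoter sequences are from RefSeq, GRCm38.p6. The procedure was tested on simulated counts. Alternatives were DESeq2 1.42.0, other scalings, filters and cutoffs, a replicate block and leaving out each library.

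Per-library values are given for the largest and smallest change in each role, for members not called and for the most abundant; Cdk1, Cdc25c, Cenpm, Cenpa, Top2a, Hjurp, Rad21 and Cdc27 were added after their values were seen. The members and lists were chosen with earlier results of these data known, so their counts are descriptions. Samples that share a replicate number did not deviate together. Totals of 32032631 to 40728419 counts put 3 counts at 0.0747 to 0.0913 CPM, which covers counting error only. Of 4 thymocyte markers (Rag1, Rag2, Ptcra and Dntt), 0 were among the genes tested, so no levels are given for them.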

Additional observations from a re-analysis of the deposited data

How the results depend on the processing

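The number of the 55 genes called higher was 51 with DESeq2, with RLE size factors, with library totals alone, without a filter, with at least 10 counts in every sample and with the replicate block, 52 with adjusted p under 0.05 and no fold cutoff (Bub3 added), and 48 with glmTreat against a fold of 1.5 (Spc24, Cenpm and Nusap1 lost). Leaving out each library gave 50 to 51, and none was called lower in any of these fits. The median log2 fold change of the 55 genes was 1.62 to 1.69 under the other scalings, tests and filters, 1.75 with the replicate block, and 1.41 (without WT replicate 3) to 1.83 with a library left out. Cenpt ranged from -0.10 to 0.20 with a library left out and changed direction only without WT replicate 3. Over all genes 3318 were called, 5244 with adjusted p under 0.05 and no fold cutoff, 1686 with glmTreat, 3190 with the replicate block, and 2867 to 3667 with a library left out. The numbers in the labels did not pair the samples (correlations of their deviations 0.07, 0.03 and -0.0006), so the block is no paired test. Of 770 values of single genes under 14 alternatives, 762 kept direction and side of the threshold. Library totals alone put the median of all genes at -0.07. The 3 libraries per genotype limit the precision.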

Other observations

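Cohesin holds sister chromatids together from S phase until anaphase. Of 12 genes, Smc1a, Smc3, Rad21 and Esco2 were called higher by edgeR (33.3%, beside 11.9% of all genes tested) and none was called lower (0 at an unadjusted p under 0.05). In 8 of 12 every KO library was above every WT library, a separation that 26.2% of all genes tested had. The calls of Smc1a and Smc3 were lost without WT replicate 3 (log2 fold change 0.56) and without KO replicate 1 (0.57), respectively. Rad21, the subunit cut by separase, was at 220.2, 244 and 237 CPM in the WT libraries and 468, 484 and 491 CPM in the KO libraries, with every KO library above every WT library (log2 fold change 1.04, SE 0.07, edgeR adjusted p 4.64e-05). Esco2, the acetyltransferase that locks cohesin on DNA in S phase, was at 11.1, 15.9 and 6.31 CPM in the WT libraries and 39.7, 48.6 and 44.7 CPM in the KO libraries (log2 fold change 2.0, SE 0.29, edgeR adjusted p 0.00147). The loader genes Nipbl and Mau2 had log2 fold changes of -0.07 and -0.14 and did not pass the test, and that of Nipbl turned to 0.02 without WT replicate 3.

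The APC/C is the ubiquitin ligase that Cdc20 activates. Of its 15 genes 1 was called higher (6.67%, beside 11.9% of all genes tested) and none lower, with 2 lower at an unadjusted p under 0.05 in edgeR's test. Every KO library was above every WT library in 6 of the 15 genes, beside 26.2% of all genes. In 3 of the 15 genes, Anapc13, Cdc23 and Cdc26, every KO library was below, beside 27.6% of all genes. The gene called was Anapc15, at 25.1, 27.7 and 16.2 CPM in the WT libraries and 40.8, 36.2 and 37.8 CPM in the KO libraries (log2 fold change 0.73, SE 0.19, edgeR adjusted p 0.0162), a call that was lost without WT replicate 3 (log2 fold change 0.53). Cdc27 was at 74.3, 77.5 and 77.1 CPM in the WT libraries and 111, 112 and 111 CPM in the KO libraries, without overlap, and fell short of the fold cutoff at a log2 fold change of 0.55. Cdc23 had the lowest log2 fold change of the list, at 74.9, 72.7 and 68.6 CPM in the WT libraries and 59.01, 58.8 and 60.02 CPM in the KO libraries (log2 fold change -0.28, SE 0.07, edgeR adjusted p 0.0129), and was not called.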
